A study of Homo sapiens with 18 samples.

Results

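The genes described here are those that differed between posterior and anterior neural ectoderm at day 2 and kept the same direction of difference at day 4 in each of 3 media. They were chosen on group means of log2(TPM + 1), where TPM is the share of a transcript scaled to a fixed total of 1000000 and 1 is a pseudocount. A gene was taken when the posterior side minus the anterior side was at least 1, or at most -1, at day 2 and in all 3 media. It also had to have a symbol, not to be a HOX gene and to reach a mean of 5 TPM in at least 1 group. Of 37550 rows in the table, 12436 symbol rows passed the level criterion and 72 genes met the whole rule. In cells of posterior origin 53 of them were higher and 19 lower. Because these 4 differences chose the genes, they are given as a description and are not tested.

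The cells were wild-type H1, an established pluripotent line of human origin, in 9 groups of 2 biological replicates, and all groups share this 1 line. Undifferentiated cells (hPSC) were collected at day 0. All other cells first spent a day in a definitive ectoderm medium with A8301 and LDN193189, which block TGF-beta and BMP receptors, C59, which blocks WNT secretion, and the MEK inhibitor trametinib at 250 nM. On the second day, anterior neural ectoderm (aNE) received C59 at 1 µM. Posterior neural ectoderm (pNE) was given TTNPB at 50 nM, which activates retinoic acid receptors. It also received 20 ng/mL of FGF2 and, to block tankyrase, XAV939 at 1 µM. Both day-2 media held A8301, LDN193189 and thiazovivin. Cells of each origin then went on to day 4 in 1 of 3 media. The forebrain groups are aNE_T and pNE_T, those of the midbrain medium carry the letter M (aNE_M, pNE_M), and H marks the hindbrain medium (aNE_H, pNE_H). The forebrain medium held XAV939, LDN193189 and FGF2 on the third day, and the composition of the other media is not used here. Plating density was 37500 cells per cm2 for both origins collected at day 2, but 75000 for aNE and 150000 for pNE carried to day 4. At day 4, origin and plating density therefore cannot be told apart.

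The early neural plate is patterned along its head-to-tail axis. Retinoic acid and FGF favour posterior, hindbrain and spinal fates, whereas low WNT, BMP and retinoid signalling favours forebrain. Retinoic acid enters the nucleus with a binding protein and acts on receptors that sit on DNA as heterodimers with RXR, and several genes of its own uptake, storage and receptor machinery are its direct targets. Forebrain transcription factors such as OTX2, SIX3 and FEZF1 are known to mark the anterior neural plate.

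The values hold no read counts, so depth is unknown and no counting error can be given. Replicates correlated at r = 0.982 to 0.987 across the tested genes, and libraries of different groups at 0.879 to 0.968, where genes are not independent replicates. The 12 pluripotency genes summed to between 6848 and 6902 TPM in hPSC and to between 967 and 2456 TPM in the other 16 libraries. The 14 pan-neural genes summed to between 611 and 625 TPM in hPSC, 1013 and 1575 TPM at day 2 and 628 and 2095 TPM at day 4. The 12 mesendoderm genes stayed between 4.22 and 32.6 TPM except in aNE_M, where they summed to 98.9 and 119 TPM. The sum of 15 neural crest and surface ectoderm genes moved with origin, from 816 and 817 TPM in aNE to 1400 and 1632 TPM in pNE, and was higher on the posterior side in all 3 media as well. The keratins KRT18 and KRT8, with group means of up to 1087 and 994 TPM, hold most of this sum. Of its 14 tested genes, only 2 were at least 1 higher in pNE at day 2 and 1, SOX10, at least 1 lower. In the forebrain, midbrain and hindbrain media 2, 4 and 3 were higher and 1, 3 and 3 lower on the posterior side by that much, PAX3 among the lower ones in the midbrain and hindbrain media with -1.59 and -3.62. No gene of the 72 belongs to any of these 4 lists, and the part of such cells in the results was not tested. In bulk RNA, fewer cells of a type and less RNA per cell cannot be told apart.

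Few of the day-2 differences lasted in all 3 media. At day 2, 366 symbol rows past the level criterion were higher in pNE by at least 1 on the log2 scale, and 53 of them (14.5%) stayed higher by that much in every medium. Of 231 rows that were lower in pNE, 19 (8.23%) stayed lower. By contrast 168 of the higher and 109 of the lower rows reached the threshold in no medium. The forebrain medium held the most of them, with 143 higher and 94 lower rows, and the midbrain medium the fewest, with 101 higher and 43 lower rows. The limma fit, at an adjusted p under 0.05 and a log2 difference of at least 1, called 3.85% of all 17033 tested genes between the origins at day 2 and 7.77%, 5.74% and 6.83% in the forebrain, midbrain and hindbrain media.

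The libraries of the posterior side lay wholly above those of the anterior side at all 4 stages for all 53 higher genes, and wholly below for all 19 lower genes. Among all tested genes, 3.06% lay wholly above and 4.14% wholly below. Since the rule used the same values, nothing is read from the difference in these shares. Among the 53 higher genes, the median difference was 1.95 at day 2 and 2.67, 2.02 and 2.64 on the log2 scale in the forebrain, midbrain and hindbrain media. Among the 19 lower genes, the median size was 1.495 at day 2 and 2.66, 1.79 and 2.39 in the 3 media. The genes therefore differed more at day 4 than at day 2 in most cases. The mean size over the media exceeded the day-2 size in 36 of the 53 higher and 16 of the 19 lower genes. It exceeded it by at least 1 in 15 and 7 of them, and fell short by at least 1 in 4 and 1.

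The midbrain medium seldom held the largest difference, in 2 of the 53 higher genes and 2 of the 19 lower ones. The hindbrain medium held it for 25 of the higher genes and the forebrain medium for 14 of the lower genes. The smallest of the 4 differences lay at day 2 for 21 higher and 12 lower genes. SPX, the gene of the secreted peptide spexin, grew most, from 1.12 at day 2 to 7.14 in the forebrain medium. From day 2 to the mean of the 3 media, SPX gained 3.92, DHRS3 3.24 and CNR1 2.74, and on the lower side the difference of FRZB grew by 2.27. ATOH8 shrank most, from 5.21 at day 2 to 2.09 in the hindbrain medium.

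**Figure D1:**
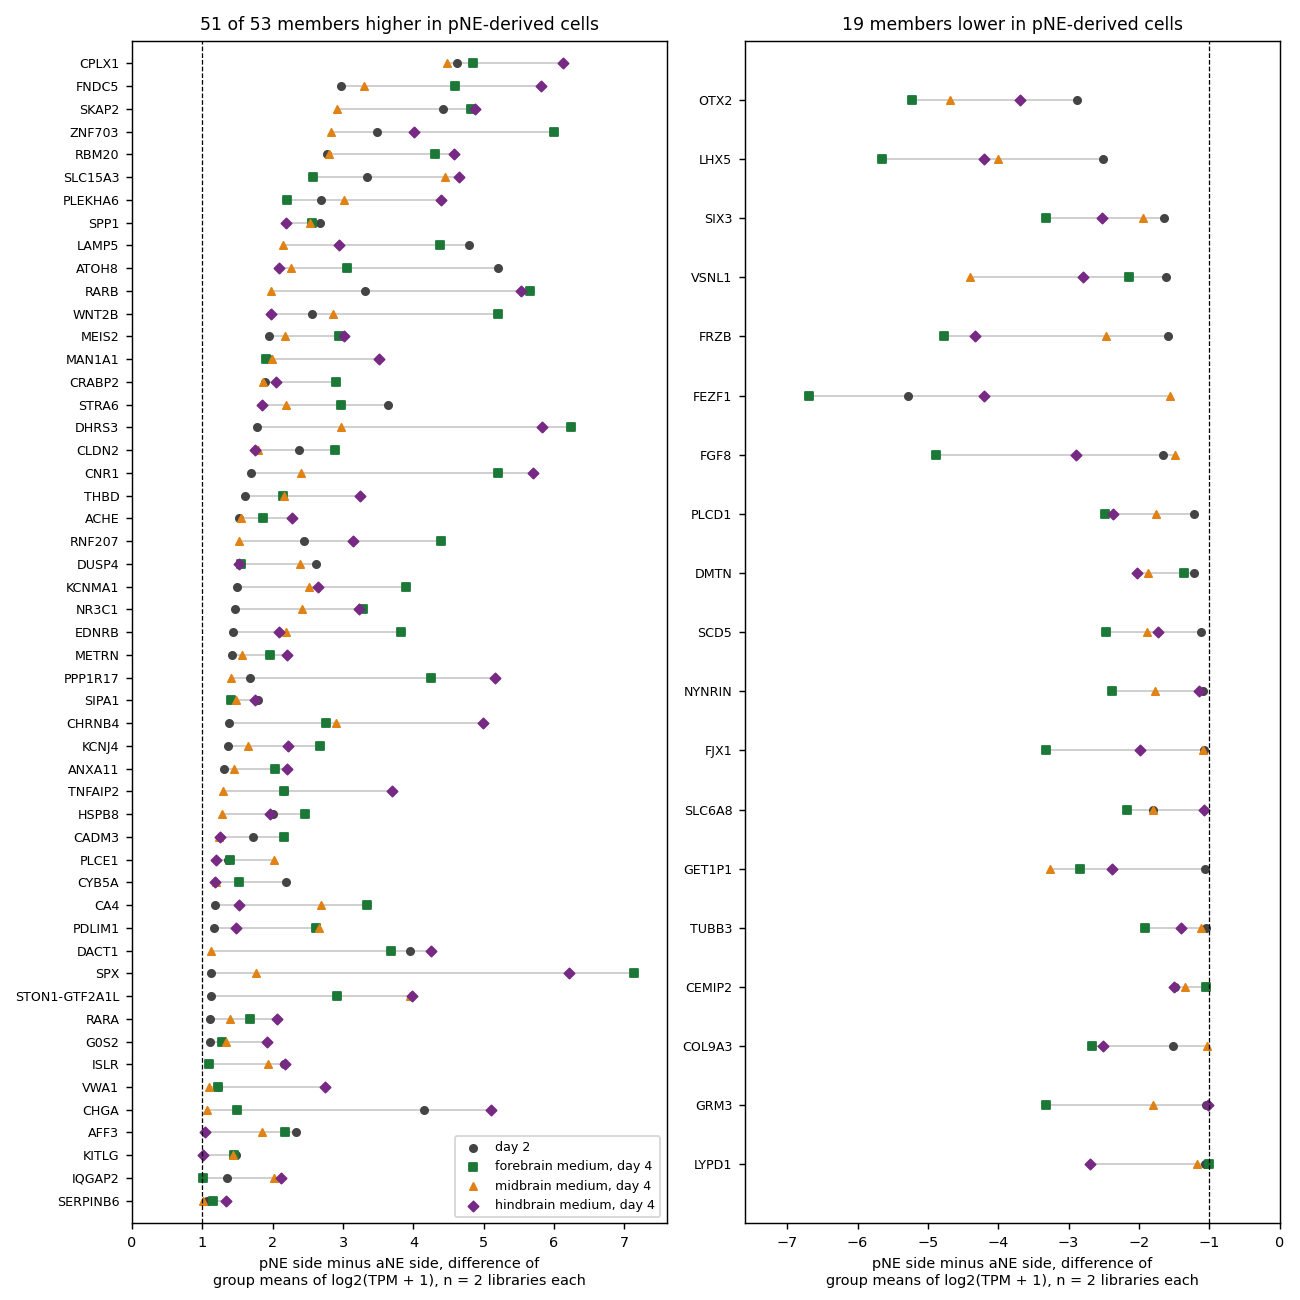
Difference between the posterior and the anterior side for 70 of the 72 genes, on the x axis as the difference of group means of log2(TPM + 1) with 2 libraries per group, at day 2 and in the 3 media at day 4. Genes are ordered by their smallest difference, the dashed lines mark the threshold of 1, and the midbrain medium is the largest of the 4 in 2 of the 53 higher genes and 2 of the 19 lower ones.

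Retinoid pathway genes made up 6 of the 53 higher genes and none of the lower ones. Of the 20 tested genes of a retinoid list, 6 met the rule, and RARA, RARB, DHRS3, CRABP2 and STRA6 are described here. Of all 17033 tested genes, 72 (0.423%) met the rule, a share that also stands beside the counts from the other lists below. The lists were chosen with earlier results of these data known, so these counts are a description. RARA and RARB encode nuclear retinoic acid receptors. CRABP2 carries retinoic acid to the nucleus, STRA6 is the membrane receptor that takes up retinol, and DHRS3 reduces retinal back to retinol.

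RARB was nearly silent in hPSC, at 0.105 and 0.134 TPM, and low at 1.28 and 1.08 TPM in aNE. In pNE it stood at 21.4 and 20.04 TPM. Cells of posterior origin reached 77.8 and 85.2 TPM in the forebrain medium, 4.48 and 5.16 TPM in the midbrain medium and 56.9 and 65.5 TPM in the hindbrain medium. Every library of the anterior side at day 4 stayed under 1 TPM, so the origins did not overlap in any medium. The log2 differences were 3.31 at day 2 and 5.66, 1.98 and 5.53 in the forebrain, midbrain and hindbrain media. From the forebrain to the midbrain medium the mean over the origins fell by 1.99 ± 0.11 (SE, adjusted p = 8.43e-09). This comparison is not among the 4 differences of the rule. The level criterion bears on it, since RARB reached a mean of 5 TPM in pNE, pNE_T and pNE_H alone.

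The promoter of RARB is shown because it holds a retinoic acid response element of the direct repeat type, a pair of short units spaced by 5 bases, to which the receptor heterodimer is known to bind. The stretch is the 250 bases before 1 of the RARB start sites in RefSeq (GRCh38.p14, plus strand, chr3:25428013-25428262), 5′ to 3′, with the repeat in capitals:

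RARB: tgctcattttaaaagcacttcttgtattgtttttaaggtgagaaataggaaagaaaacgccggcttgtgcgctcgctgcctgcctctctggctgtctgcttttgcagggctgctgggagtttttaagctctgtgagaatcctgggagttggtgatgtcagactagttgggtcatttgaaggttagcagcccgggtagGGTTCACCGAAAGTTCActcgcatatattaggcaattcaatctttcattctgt

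The repeat lies at chr3:25428210-25428226, from 53 to 37 bases before the start. The search on both strands took 2 units in the same direction with 5 bases between them. A unit could be AGGTCA as well as the variant AGTTCA, and, added after the data were seen, either GGTTCA or else the form GGGTCA. RARB was the only gene with a match among the 57 of the 72 genes that the RefSeq promoter table holds, with 104 windows of 300 bases. Of all 35116 such windows, 31 (0.0883%) match. Without the 2 added units, no window of these 57 genes and 7 of all windows (0.0199%) match. A match describes the letters of the window and is no evidence of binding in these cells.

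DHRS3 stood far apart in the 2 origins at day 4. It stood at 6.04 and 7.19 TPM in hPSC, 15.1 and 18.3 TPM in aNE and 56.4 and 62.9 TPM in pNE. In the forebrain medium the anterior side stood at 0.695 and 0.720 TPM while the posterior side stood at 119.7 and 138 TPM. In the hindbrain medium the corresponding values were 0.765 and 1.03 TPM and 106 and 107 TPM. In the midbrain medium they were 1.24 and 1.28 TPM and 16.6 and 16.96 TPM, so that here both origins were below their day-2 level. The differences between the origins were 1.78 at day 2 and 6.25, 2.98 and 5.83 in the forebrain, midbrain and hindbrain media, and among the 53 higher genes only SPX had a larger one. From day 2 to the midbrain medium the mean over the origins fell by 2.37 ± 0.09 (SE, adjusted p = 1.57e-10).

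CRABP2 had the highest level of the 72 genes, on the TPM scale, which is per transcript length and allows levels to be compared between genes. It rose in both origins, from 133 and 112 TPM in hPSC to 555 and 540.4 TPM in aNE and 2091 and 1982 TPM in pNE, a mean rise over the origins of 3.10 ± 0.08 (SE, adjusted p = 1.12e-11). In the midbrain medium it stood at 2107 and 1856 TPM on the anterior and 6949 and 7519 TPM on the posterior side. In the forebrain and hindbrain media the posterior side held 5718 ± 489.5 and 5064 ± 58 TPM (SD, n = 2) against 762.1 ± 20 and 1228 ± 98 TPM. The differences between the origins lay between 1.87 and 2.90, a narrow range beside that of RARB or DHRS3.

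STRA6 followed the medium more than the other retinoid genes. It was at 7.75 and 7.005 TPM in aNE and 10.7 and 10.8 TPM in aNE_T, close to the 9.77 and 10.1 TPM of hPSC. In the other media the anterior side stood higher as well, at 146 and 152 TPM in aNE_M and 109 and 105 TPM in aNE_H. The posterior side stood at 88.9 and 119 TPM in pNE, 85.5 and 96.1 TPM in pNE_T, 635 and 738 TPM in pNE_M and 408 and 372 TPM in pNE_H. Averaged over the origins, STRA6 was higher in the midbrain than in the forebrain medium by 3.29 ± 0.08 (SE, adjusted p = 6.998e-12) and in the hindbrain than in the forebrain medium by 2.65 ± 0.08 (SE, adjusted p = 3.49e-10). Its difference between the origins shrank from 3.64 at day 2 to 1.85 in the hindbrain medium.

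RARA kept near its hPSC level of 19.2 ± 0.38 TPM (SD, n = 2) on the anterior side throughout, between 15.5 ± 0.020 TPM in aNE_M and 25.00 ± 0.24 TPM in aNE_T. On the posterior side it lay between 41.8 ± 10 TPM in pNE and 86.8 ± 6.9 TPM in pNE_H. RARA was called in none of the 7 comparisons that average the origins.

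The other retinoid genes did not keep a difference through all 4 stages. On the list of 20, log2 differences of at least 1 in favour of the posterior side were held by 7 genes at day 2, 10 in the forebrain medium and 8 each in the midbrain and hindbrain media, including the 6 that the rule chose. CYP26A1, the main retinoic acid-degrading enzyme, differed by 0.66 at day 2 and by 2.58, 3.63 and 3.34 in the 3 media, and so missed the rule at day 2 only. RARG, the third receptor, differed by 0.11, -0.81, 1.64 and -0.28 at the same stages. RXRA and RXRB, the partner receptors, stayed within 0.5 of 0 at every stage. CRABP1 differed by -2.45 in the midbrain medium. No other gene of the list was lower on the posterior side by at least 1 at any stage.

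**Figure D2:**
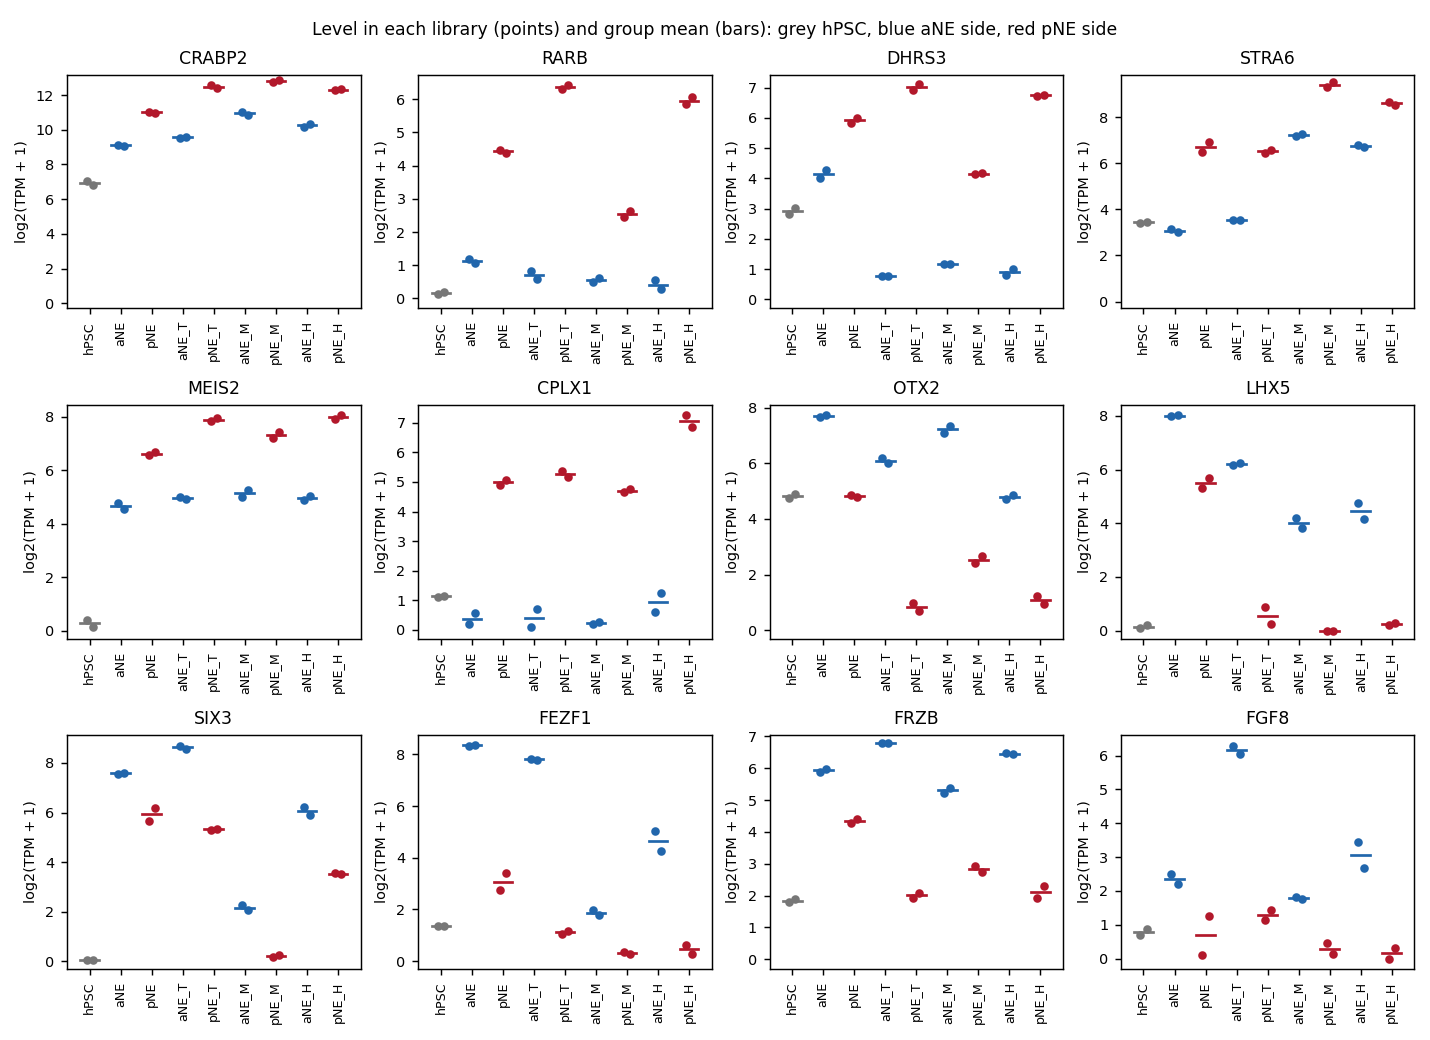
Level of 12 genes in each of the 18 libraries, on the y axis as log2(TPM + 1), with points for libraries, bars for the mean of 2 libraries and the 9 groups on the x axis (grey hPSC, blue anterior side, red posterior side). RARB on the anterior side stays near the hPSC level in all 3 media, whereas OTX2 and LHX5 are lower on the posterior side at day 4 than in pNE.

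Transcription factors of the hindbrain were found among the higher genes. Of the 21 tested hindbrain and posterior factors other than HOX genes, 3 met the rule, among them ZNF703 and MEIS2. The list as a whole was split at day 2, when 5 of its genes were at least 1 higher and 5 at least 1 lower in pNE. Among the lower ones, the homeodomain gene IRX3 differed by -1.82, the nuclear receptor gene NR2F2 by -3.53 and the forkhead gene FOXB1 by -2.29. In the forebrain, midbrain and hindbrain media 10, 8 and 11 genes were higher and 0, 3 and 2 lower on the posterior side by that much.

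ZNF703, a corepressor of the NET zinc finger family, did not stay silent on the anterior side. It was at 2.52 and 1.84 TPM in aNE and 1.89 and 1.07 TPM in aNE_T, but at 22.3 and 21.4 TPM in aNE_M. Posterior levels went from 26.8 and 43.7 TPM in pNE to 149.8 and 161 TPM in pNE_T, 173 and 151 TPM in pNE_M and 93.1 and 66.7 TPM in pNE_H. Averaged over the origins, it was higher in the midbrain medium than at day 2 by 2.53 ± 0.16 (SE, adjusted p = 4.52e-08), and higher than in the forebrain medium by 1.64 ± 0.16 (SE, adjusted p = 3.68e-06). Its paralogue ZNF503, on the same list, differed by 5.55 at day 2 and by 5.19, -0.44 and 3.55 in the 3 media, and so missed the rule in the midbrain medium.

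MEIS2, a TALE homeodomain cofactor of HOX and PBX proteins, was high in both origins. It rose from 0.335 and 0.0917 TPM in hPSC to 26.7 and 22.8 TPM in aNE and 94.7 and 101 TPM in pNE. This rise averaged 5.38 ± 0.11 (SE, adjusted p = 1.005e-12) over the origins, the largest among the 53 higher genes. At day 4 the anterior side stayed between 29.96 ± 1.1 TPM in aNE_T and 34.5 ± 4.3 TPM in aNE_M (SD, n = 2), and the posterior side between 159 ± 16 TPM in pNE_M and 252 ± 19 TPM in pNE_H. The differences were 1.95 at day 2 and 2.94, 2.18 and 3.01 in the forebrain, midbrain and hindbrain media. MEIS1, its paralogue, fell just short at day 2 with 0.95 and differed by 4.83, 3.75 and 5.53 in the media.

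Other regulators of transcription on the higher side were ATOH8, NR3C1 and AFF3. ATOH8 is a bHLH factor. It was at 0.613 and 0.276 TPM in hPSC and 0.409 and 0.656 TPM in aNE, but at 51.9 and 59.1 TPM in pNE, the largest day-2 difference of the 53 higher genes. The anterior side caught up in part, to 7.05 and 7.06 TPM in aNE_T, 5.85 and 7.36 TPM in aNE_M and 25.4 and 25.3 TPM in aNE_H. The posterior side was at 60.6 and 71.5 TPM, 35.01 and 35.7 TPM and 109 and 113 TPM in the same media. NR3C1, the glucocorticoid receptor, was present in hPSC at 5.16 and 6.13 TPM, at 5.99 and 4.32 TPM in pNE and at 0.882 and 1.58 TPM in aNE. It was under 0.6 TPM in every anterior library at day 4 and lay between 6.81 ± 2.5 TPM in pNE_M and 12.7 ± 0.64 TPM in pNE_H on the posterior side. AFF3, a transcription elongation factor, differed by 2.33, 2.17, 1.84 and 1.03 at the 4 stages.

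SKAP2, an adaptor protein of kinase signalling, lies beside the HOXA cluster on chromosome 7. It was at 3.62 and 3.96 TPM in hPSC and 2.79 and 2.34 TPM in aNE, and at 79.3 and 70.9 TPM in pNE. Posterior levels at day 4 were 119 and 133 TPM, 35.3 and 27.5 TPM and 105 and 119 TPM in the forebrain, midbrain and hindbrain media, while the anterior side stayed between 2.49 and 4.19 TPM in all 6 libraries. In all, 5 of 17 HOX rows past the level criterion were higher by at least 1 at all 4 stages.

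The genes lower on the posterior side included 4 of the 18 tested forebrain and eye field factors, OTX2, LHX5, SIX3 and FEZF1. OTX2 specifies forebrain and midbrain, SIX3 forebrain and eye, and LHX5 and FEZF1 act in the rostral forebrain. OTX2 had the largest smallest difference of the 19 lower genes. It was at 26.1 and 28.5 TPM in hPSC and 28.3 and 26.6 TPM in pNE, against 203 and 214 TPM in aNE. At day 4 the posterior side held 0.988 and 0.634 TPM in the forebrain, 4.297 and 5.38 TPM in the midbrain and 1.37 and 0.908 TPM in the hindbrain medium. The anterior side kept 71.04 and 62.7 TPM, 136 and 162 TPM and 25.2 and 27.7 TPM in these media. Between day 2 and the forebrain medium the mean of OTX2 over the origins fell by 2.80 ± 0.10 (SE, adjusted p = 3.19e-10). For the hindbrain medium the mean fell by 3.34 ± 0.10 (SE, adjusted p = 5.45e-11). It was 1.42 ± 0.10 (SE) higher in the midbrain than in the forebrain medium.

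LHX5 rose in both origins at day 2, from 0.0613 and 0.146 TPM in hPSC to 258 and 258 TPM in aNE and 38.7 and 51.1 TPM in pNE. On the posterior side it was under 1 TPM in all 6 libraries at day 4, and listed at 0 in both pNE_M libraries. On the anterior side it stood at 71.01 and 74.1 TPM, 17.2 and 13.2 TPM and 25.8 and 16.99 TPM in the forebrain, midbrain and hindbrain media. The gene was thus clearly detected in pNE at day 2 and nearly absent from the posterior side in every medium. Between day 2 and the forebrain medium its mean over the origins fell by 3.39 ± 0.16 (SE, adjusted p = 3.19e-09). For the midbrain medium the mean fell by 4.76 ± 0.16 (SE, adjusted p = 6.48e-11), and the fall to the hindbrain medium was also called.

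SIX3 also rose in both origins, from 0.0310 and 0.0295 TPM in hPSC to 187 and 192 TPM in aNE and 49.7 and 71.7 TPM in pNE, a mean rise of 6.71 ± 0.13 (SE, adjusted p = 1.005e-12) that is the largest of all 72 genes. In the forebrain medium it reached 414 and 379.5 TPM on the anterior and stood at 38.00 and 39.8 TPM on the posterior side. Both origins were low in the midbrain medium, at 3.78 and 3.16 TPM and 0.129 and 0.184 TPM. The values in the hindbrain medium were 73.8 and 58.1 TPM and 10.8 and 10.4 TPM. On average over the origins, SIX3 fell by 5.79 ± 0.11 (SE, adjusted p = 4.25e-13) from the forebrain to the midbrain medium, where the difference between the origins was -1.95.

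FEZF1 had the largest day-2 difference of the 19 lower genes, -5.28, with 323 and 325 TPM in aNE and 5.66 and 9.51 TPM in pNE beside 1.55 and 1.55 TPM in hPSC. It was the 1 gene of the 72 that limma called in all 7 comparisons that average the origins. The anterior side held 227 and 220.3 TPM in the forebrain medium, 2.89 and 2.48 TPM in the midbrain and 32.2 and 18.4 TPM in the hindbrain medium. The posterior side was under 1.3 TPM in all 6 libraries. The difference shrank to -1.57 in the midbrain medium, where the anterior level itself had dropped.

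The other forebrain factors missed the threshold in at least 1 of the 4 stages. Of the 18 tested, 8 were lower on the posterior side by at least 1 at day 2, 12 in the forebrain, 9 in the midbrain and 12 in the hindbrain medium. At each stage 1 gene was higher by that much. It was VAX2 at day 2 and in the forebrain medium, with 1.45 and 3.15. In the midbrain and hindbrain media it was TBX3, with 1.30 and 2.90. RAX, an eye field factor, differed by -4.77 at day 2 but by 0.00 in the midbrain medium. PAX6 differed by -3.39 at day 2 and by 0.86, -1.57 and 0.46 in the 3 media.

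Signalling genes stood on both sides. FGF8, the ligand of the isthmus and the anterior neural ridge, was lower on the posterior side. It was low at day 2, at 4.69 and 3.63 TPM in aNE and 0.0895 and 1.41 TPM in pNE, where the difference rests on values near 0 and the 2 pNE libraries were far apart. It reached 77.5 and 64.9 TPM in aNE_T and 9.83 and 5.36 TPM in aNE_H, and 2.503 and 2.42 TPM in aNE_M. Posterior libraries at day 4 lay between 0 and 1.71 TPM. Of the lower genes, FGF8 and GRM3 were those that reached 5 TPM in anterior groups alone. From the forebrain to the midbrain medium the mean of FGF8 over the origins fell by 2.68 ± 0.24 (SE). FGF8 passed the level criterion through aNE_T and aNE_H alone, so this fall is a description and not a test.

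FRZB, a secreted WNT antagonist, was the 1 gene of the 30 tested WNT genes on the list that met the rule. It rose from 2.49 and 2.68 TPM in hPSC to 57.7 and 62.4 TPM in aNE and 18.3 and 20.4 TPM in pNE. It was at 109.9 and 109 TPM, 36.4 and 40.6 TPM and 87.1 and 85.9 TPM on the anterior side in the forebrain, midbrain and hindbrain media. Posterior libraries held 2.81 and 3.27 TPM, 6.57 and 5.72 TPM and 2.83 and 3.97 TPM. The differences were -1.59 at day 2 and -4.78, -2.47 and -4.33 in the forebrain, midbrain and hindbrain media.

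WNT2B, a WNT ligand that the WNT list did not hold, and DACT1, an intracellular modulator of WNT signalling, were higher on the posterior side. WNT2B was at 0.297 and 0.261 TPM in hPSC, 8.37 and 8.08 TPM in aNE and 47.6 and 59.2 TPM in pNE, and the 2 origins parted in the forebrain medium, at 1.82 and 2.59 TPM and 116 and 117 TPM. DACT1 lay at 10.2 and 11.98 TPM in hPSC, below that in aNE at 3.06 and 2.79 TPM and above it in pNE at 54.5 and 65.6 TPM. Its anterior level was 56.96 and 63.4 TPM in the midbrain medium, where the difference was 1.13, against 4.25 in the hindbrain medium with 17.4 and 13.8 TPM and 312 and 316 TPM. FJX1, a secreted regulator of planar polarity signalling, was lower on the posterior side, by -1.07, -3.32, -1.09 and -1.99 at the 4 stages.

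DUSP4, a nuclear phosphatase that removes phosphate from ERK, was the 1 gene on the higher side from 25 tested FGF-ERK genes. It was at 5.29 and 5.85 TPM in hPSC, 8.65 and 8.59 TPM in aNE and 55.5 and 61.2 TPM in pNE. At day 4 the anterior side lay between 21.2 and 43.9 TPM and the posterior side between 68.9 and 123 TPM. The mean rise from day 2 over the origins was 1.12 ± 0.06 in the midbrain and 1.58 ± 0.06 in the hindbrain medium (SE), both called. The feedback genes SPRY4 and DUSP6 did not keep their difference. SPRY4 differed by 3.63 at day 2 and by -2.68, -0.98 and -1.61 in the 3 media, and DUSP6 by 2.98, 0.04, 0.16 and -0.24. Of the list, 14 genes were higher in pNE by at least 1 at day 2, and 4, 5 and 4 in the forebrain, midbrain and hindbrain media. Lower on the posterior side by that much were 2 genes at day 2 and 7, 4 and 5 in these media.

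Among secreted factors and their receptors, SPP1 (osteopontin) kept nearly the same difference throughout, with values of 2.68, 2.56, 2.52 and 2.18 at the 4 stages on a level of 239 ± 43 TPM in pNE and 36.2 ± 1.1 TPM in aNE (SD, n = 2). METRN, a neurotrophic secreted protein, rose in both origins, from 32.9 and 15.02 TPM in hPSC to 58.9 and 55.2 TPM in aNE and 140.1 and 172 TPM in pNE, and differed by 1.43, 1.96, 1.57 and 2.21. KITLG, the ligand of KIT, differed by 1.48, 1.45, 1.44 and 1.02 and lay just inside the threshold in the hindbrain medium. EDNRB, an endothelin receptor, was highest among the day-0 and day-2 groups in hPSC, at 15.7 and 13.1 TPM, and was lower in both aNE at 0.924 and 0.968 TPM and pNE at 4.54 and 3.96 TPM. It was the 1 higher gene that lay below its hPSC level by at least 1 in both origins at day 2.

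SPX showed the largest differences of all. At day 2 it was at 0.987 and 2.396 TPM in aNE and 4.26 and 5.07 TPM in pNE. Posterior libraries reached 407 and 438 TPM in the forebrain and 179 and 245 TPM in the hindbrain medium, but only 2.71 and 4.43 TPM in the midbrain medium. The anterior side stayed at or under 2.07 TPM at day 4. CNR1, the cannabinoid receptor of neurons, followed a similar course at a lower level, with 2.75 and 2.91 TPM in pNE and 35.1 and 39.4 TPM, 4.68 and 4.81 TPM and 51.9 and 52.7 TPM in the 3 media, against at most 0.0943 TPM in any anterior library at day 4. From the forebrain to the midbrain medium, the mean of SPX over the origins fell by 3.87 ± 0.17 (SE) and that of CNR1 fell by 1.33 ± 0.09 (SE). Both genes passed the level criterion through pNE_T and pNE_H alone, so these falls are a description and not a test. For CNR1 the anterior side differed from day 2 by -0.19 in the forebrain and -0.12 in the midbrain medium. The posterior side of CNR1 differed by 3.32 and 0.59.

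FNDC5, the membrane precursor of irisin, and CHGA, the granule protein chromogranin A, behaved differently with time. FNDC5 was at 1.68 and 1.05 TPM in hPSC, 21.4 and 14.1 TPM in aNE and 136 and 151 TPM in pNE, and its difference grew to 5.81 in the hindbrain medium, with 6.14 and 4.04 TPM and 342 and 330.1 TPM. CHGA was at 93.95 and 104 TPM in hPSC, 15.6 and 14.96 TPM in aNE and 258 and 323 TPM in pNE. Both origins were low in the midbrain medium, at 1.42 and 1.095 TPM and 3.65 and 3.76 TPM, where the mean from day 2 fell by 4.40 ± 0.09 (SE, adjusted p = 1.22e-12). The origins stood apart in the hindbrain medium, at 7.12 and 6.41 TPM and 294 and 241 TPM.

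Genes of neurons and synapses were on both sides too. CPLX1, a complexin that controls vesicle release, had the largest smallest difference of all 72 genes, 4.48 in the midbrain medium. It was at 1.18 and 1.22 TPM in hPSC, under 0.5 TPM in aNE and under 1.4 TPM in all 6 anterior libraries at day 4. On the posterior side it stood at 29.04 and 32.7 TPM in pNE, 39.96 and 34.9 TPM in pNE_T, 24.3 and 26.1 TPM in pNE_M and 152 and 116 TPM in pNE_H. CHRNB4, a nicotinic receptor subunit, was at 1.44 and 1.64 TPM in aNE and 5.01 and 6.32 TPM in pNE, and diverged to 0.960 and 0.464 TPM and 51.8 and 54.3 TPM in the hindbrain medium. ACHE, which breaks down acetylcholine, differed by 1.52, 1.87, 1.55 and 2.28 at the 4 stages. The potassium channels KCNMA1 and KCNJ4 differed by 1.49, 3.90, 2.52 and 2.64 and by 1.37, 2.67, 1.65 and 2.21.

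PPP1R17, a phosphatase inhibitor known from Purkinje cells, was listed at 0 in both aNE_T libraries and in 1 of the aNE_H libraries. It was at 2.33 and 3.096 TPM in hPSC, 1.34 and 2.04 TPM in aNE and 6.97 and 8.097 TPM in pNE. On the posterior side it went to 17.5 and 18.8 TPM in pNE_T and 31.8 and 39.8 TPM in pNE_H, but to 1.77 and 1.86 TPM in pNE_M. LAMP5, a membrane protein of neurons, was highest at day 2, at 117 and 109 TPM in pNE against 2.505 and 3.900 TPM in aNE, and its mean over the origins was called lower than at day 2 in each medium. Its fall was largest in the midbrain medium, where it fell by 2.80 ± 0.15 (SE, adjusted p = 5.35e-09). CADM3, a synaptic adhesion molecule, differed by 1.73, 2.16, 1.24 and 1.25.

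On the lower side, VSNL1, a neuronal calcium sensor, was highest in hPSC at 84.7 and 77.1 TPM. It was at 39.03 and 44.7 TPM in aNE and 15.5 and 10.7 TPM in pNE, and at 60.4 and 72.2 TPM in aNE_M against 1.86 and 2.496 TPM in pNE_M, its largest difference. TUBB3, a tubulin of neurons that these stem cells also expressed at 233 and 219.7 TPM, differed by -1.05, -1.92, -1.12 and -1.40 and was 1.95 ± 0.07 (SE) higher in the midbrain than in the forebrain medium on average over the origins. GRM3, a metabotropic glutamate receptor, differed most in the forebrain medium, at 14.7 and 16.9 TPM in aNE_T and 0.362 and 1.06 TPM in pNE_T. LYPD1, a modulator of nicotinic receptors, rose in both origins at day 2, from 0.587 and 0.861 TPM in hPSC to 24.5 and 27.1 TPM in aNE and 12.2 and 11.6 TPM in pNE.

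The remaining higher genes fall into several groups. RBM20, a splicing regulator, was under 3.4 TPM in every library of hPSC and the anterior side and between 9.20 and 52.6 TPM on the posterior side. RNF207, a ubiquitin ligase, MAN1A1, a mannosidase of the Golgi, and HSPB8, a small heat shock protein, had their largest differences at 4.39, 3.51 and 2.45. Transporters and enzymes were SLC15A3, a peptide transporter of lysosomes, CA4, a carbonic anhydrase, CYB5A, an electron carrier, and PLCE1, a phospholipase. SLC15A3 stood at 20.5 and 19.1 TPM in aNE and 183 and 243 TPM in pNE. At day 4 in the midbrain medium it stood at 0.678 and 0.997 TPM and 43.1 and 35.01 TPM, and from the forebrain to the midbrain medium the mean over the origins fell by 4.41 ± 0.11 (SE, adjusted p = 5.28e-12). For CA4 the 2 libraries of pNE_T (40.8 and 21.3 TPM) and of pNE_M (15.2 and 6.39 TPM) were far apart.

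Genes of cell surface, junction and cytoskeleton were PLEKHA6, CLDN2, THBD, ISLR, VWA1, PDLIM1, IQGAP2, ANXA11 and SIPA1. CLDN2 is a claudin, THBD the thrombin receptor thrombomodulin, VWA1 a matrix protein, PDLIM1 an actin-binding LIM protein, IQGAP2 a scaffold, ANXA11 an annexin and SIPA1 a GTPase-activating protein. PDLIM1 was the most abundant of them, at 194 and 194 TPM in hPSC and 286 and 298 TPM against 44.9 and 45.8 TPM in the midbrain medium. PLEKHA6, with 3.16 and 2.59 TPM in aNE_H and 83.4 and 76.7 TPM in pNE_H, differed by 2.69, 2.20, 3.01 and 4.39. CLDN2 and THBD had low levels, at most 9.26 and 11.03 TPM in any library. TNFAIP2, G0S2 and SERPINB6 had their largest differences in the hindbrain medium, at 3.70, 1.92 and 1.34. STON1-GTF2A1L is a readthrough transcript of 2 adjacent genes and shares exons with STON1, so its value depends on how reads were divided between them.

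The remaining lower genes were PLCD1, a phospholipase, DMTN, an actin-bundling protein, SCD5, a fatty acid desaturase, NYNRIN, SLC6A8, the creatine transporter, CEMIP2, a hyaluronidase, COL9A3, a collagen chain, and the pseudogene GET1P1. DMTN was highest in the midbrain medium. It was at 2.51 and 2.03 TPM in aNE and 0.362 and 0.455 TPM in pNE, and in the midbrain medium at 44.2 and 42.03 TPM and 12.4 and 9.73 TPM, a mean rise of 3.43 ± 0.15 (SE, adjusted p = 8.65e-10). SCD5 rose most in the forebrain medium, to 55.4 and 56.02 TPM and 8.35 and 10.2 TPM. SLC6A8 has near-identical copies in the genome and GET1P1 is itself a copy of another gene, so both values are uncertain. GET1P1 had the smallest gap between libraries of the origins, 0.54 on the log2 scale.

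Set against the stem cells, the higher genes were mostly genes that pNE gained and aNE did not. With hPSC as the reference and a log2 difference of 1 as the limit, 28 of the 53 were up in pNE and within the limit in aNE, among them ATOH8, RARB, STRA6 and CPLX1. A further 10 were up in both, such as MEIS2, CRABP2 and FNDC5. In 8 genes aNE was down and pNE within the limit, such as CYB5A, at 218 and 198 TPM in hPSC, 33.2 and 39.9 TPM in aNE and 192 and 150.0 TPM in pNE. CHGA and DACT1 were down in aNE and up in pNE, 4 genes were within the limit in both, and EDNRB was down in both. Among all tested genes 8.48% were up and 6.59% down in aNE, and 8.03% up and 6.18% down in pNE.

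The 19 lower genes were mostly gained in aNE. In 7 of them aNE was up and pNE within the limit, including OTX2 and FGF8, and 6 were up in both, including LHX5, SIX3, FEZF1, FRZB, FJX1 and LYPD1. VSNL1 and GET1P1 were within the limit in aNE and down in pNE. The other 4 were within it in both. A gene that differs by at least 1 between aNE and pNE must differ from hPSC in at least one of them by some amount, and both comparisons share the hPSC libraries, so these counts are a description.

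**Figure D3:**
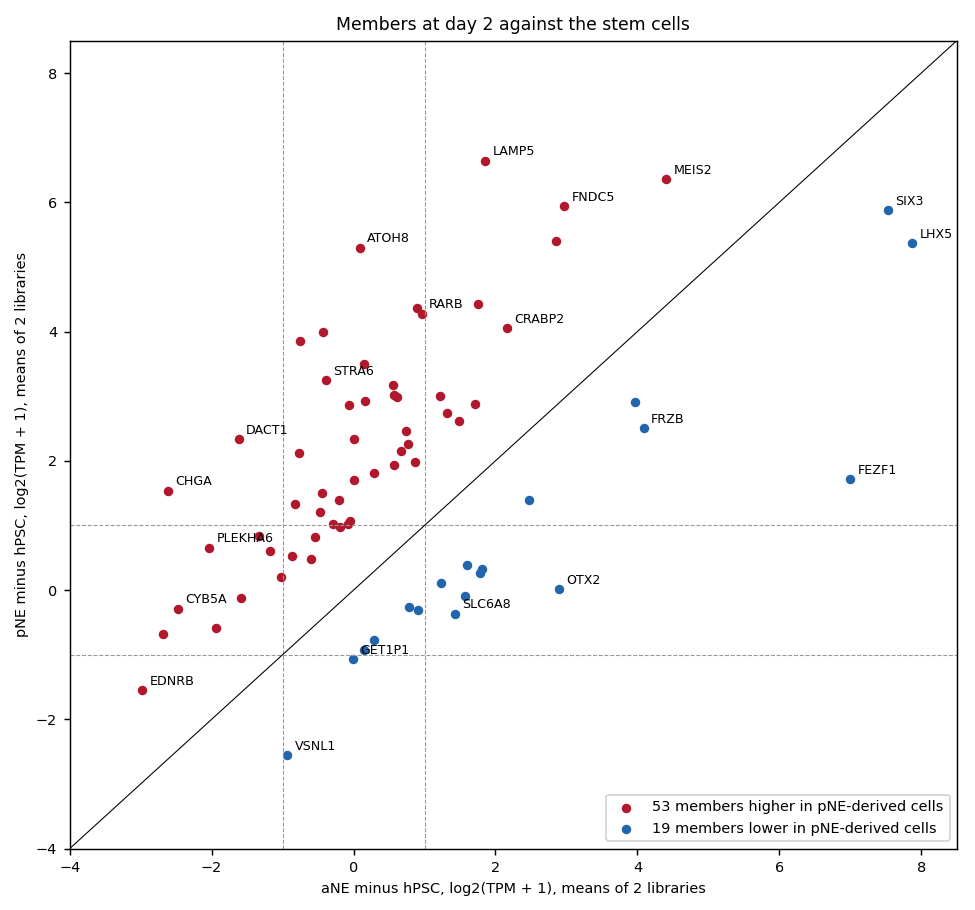
Change from hPSC at day 2 in aNE on the x axis and in pNE on the y axis for the 72 genes, as differences of means of log2(TPM + 1) over 2 libraries. The dashed lines mark a difference of 1 either way and the solid line equal change, and 28 of the 53 higher genes (red) lie in the upper middle field, where pNE is up and aNE within 1.

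Comparisons that average the 2 origins are separate from the 4 origin differences of the rule, and in these the 72 genes were tested. The level criterion of the rule did use group levels. With hPSC left aside, 22 of the genes reached 5 TPM on their higher side alone. The calls are therefore not fully independent of the choice, and in such genes a change rests largely on 1 origin. Limma called 43 of them between day 2 and hPSC, where 12.6% of all genes were called. Higher at day 2 were 38 of them, against 6.81% of all genes, and lower 5, against 5.74%. Between day 4 and day 2 it called 28 genes in the forebrain medium (16 up, 12 down), 37 in the midbrain medium (16 up, 21 down) and 42 in the hindbrain medium (22 up, 20 down), where 7.88%, 10.9% and 9.69% of all genes were called. Of the symbol rows with at least 5 TPM in a group, a background chosen after the data were seen, 13.8% were called between day 2 and hPSC and 9.17%, 12.3% and 11.2% in the 3 media. By direction, the calls among all genes were 3.68% up and 4.2% down in the forebrain medium, 4.04% and 6.87% in the midbrain medium and 3.17% and 6.52% in the hindbrain medium. A gene that differs between the origins differs from hPSC in at least 1 of them, which bears on the comparison of day 2 with hPSC.

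The 5 genes called lower at day 2 than in hPSC on the mean of the origins were EDNRB, CYB5A, HSPB8 and IQGAP2 among the higher genes and VSNL1 among the lower ones. CYB5A, HSPB8 and IQGAP2 changed by -2.48, -2.69 and -1.94 in aNE but by only -0.29, -0.68 and -0.59 in pNE. VSNL1 changed by -0.94 in aNE and -2.56 in pNE. EDNRB fell by 2.26 ± 0.16 (SE, adjusted p = 1.44e-07) and HSPB8 fell by 1.69 ± 0.17 (SE, adjusted p = 4.17e-06). After MEIS2, the largest rises on the higher side were those of FNDC5, by 4.45 ± 0.18 (SE, adjusted p = 6.77e-10), and LAMP5, by 4.25 ± 0.18 (SE, adjusted p = 1.11e-09). On the lower side LHX5 rose by 6.62 ± 0.19 (SE, adjusted p = 3.59e-11), next to SIX3.

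Between media, the midbrain medium stood apart for many of these genes. Limma called 30 of the 72 between the midbrain and forebrain media, 9 higher and 21 lower in the midbrain medium. Of all genes 7.84% were called, 2.84% higher and 5% lower, and of the symbol rows with at least 5 TPM 9.35%. It called 23 between the hindbrain and midbrain media, 16 higher and 7 lower in the hindbrain medium. Of all genes 3.95% were called there, 1.87% higher and 2.08% lower, and of the symbol rows 4.81%. It called 16 between the hindbrain and forebrain media, 7 higher and 9 lower in the hindbrain medium. Here 4.1% of all genes were called, 1.12% higher and 2.98% lower, and 4.86% of the symbol rows. The largest falls in the midbrain against the forebrain medium were those of SIX3, CHGA and SLC15A3, and the largest rises were those of DMTN, STRA6 and ISLR, by 3.31 ± 0.15, 3.29 ± 0.08 and 2.40 ± 0.19 (SE). From the midbrain to the hindbrain medium the largest rise was that of CHGA, 3.81 ± 0.09 (SE, adjusted p = 2.53e-11). SIX3 and SPX followed with 3.61 ± 0.11 and 3.33 ± 0.17 (SE). ISLR passed the level criterion through pNE_M and pNE_H alone and SPX through pNE_T and pNE_H alone, so that criterion bears on their rises.

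Within the retinoid pathway, medium and origin did not go the same way in all genes. STRA6 and CRABP2 stood higher in the midbrain medium than at day 2 on average over the origins, by 3.44 ± 0.08 and 1.84 ± 0.07 (SE), whereas DHRS3, as given above, and RARB were lower. RARB fell by 1.24 ± 0.11 (SE, adjusted p = 7.12e-07). All 4 were higher on the posterior side there. Of the 53 higher genes, 14 rose and 14 fell from day 2 to the midbrain medium, and of the 19 lower genes 2 rose and 7 fell. In the hindbrain medium 21 of the 53 rose and 8 fell, and 1 of the 19 rose and 12 fell. These counts are limma calls. Of all genes 4.04% were called up and 6.87% down in the midbrain medium, and 3.17% and 6.52% in the hindbrain medium.

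In 8 genes no difference between stages or media was called in the comparisons that average the origins. Changes of opposite sign in the 2 origins cancel there. PLEKHA6, NR3C1, SIPA1, RARA, VWA1, PLCD1, NYNRIN and GRM3 were these genes. PLEKHA6 in the forebrain medium differed from day 2 by 0.96 ± 0.12 (SE, adjusted p = 2.76e-05). The hindbrain medium gave 0.97 ± 0.12 (SE, adjusted p = 2.29e-05). Both passed the adjusted p and missed the log2 difference of 1. NR3C1 in the forebrain medium differed from day 2 by 0.07 ± 0.16 (SE, adjusted p = 0.772). For the midbrain medium this difference was -0.16 ± 0.16 (SE, adjusted p = 0.466), and for the hindbrain medium 0.29 ± 0.16 (SE, adjusted p = 0.170). By origin, NR3C1 changed from day 2 by -0.84 on the anterior and 0.98 on the posterior side in the forebrain medium. In the hindbrain medium NR3C1 changed by -0.59 and 1.17 on these sides. GRM3 changed by 1.84 and -0.43 in the forebrain medium, and PLEKHA6 by 0.12 and 1.83 in the hindbrain medium. These changes by origin were not tested.

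**Figure D4:**
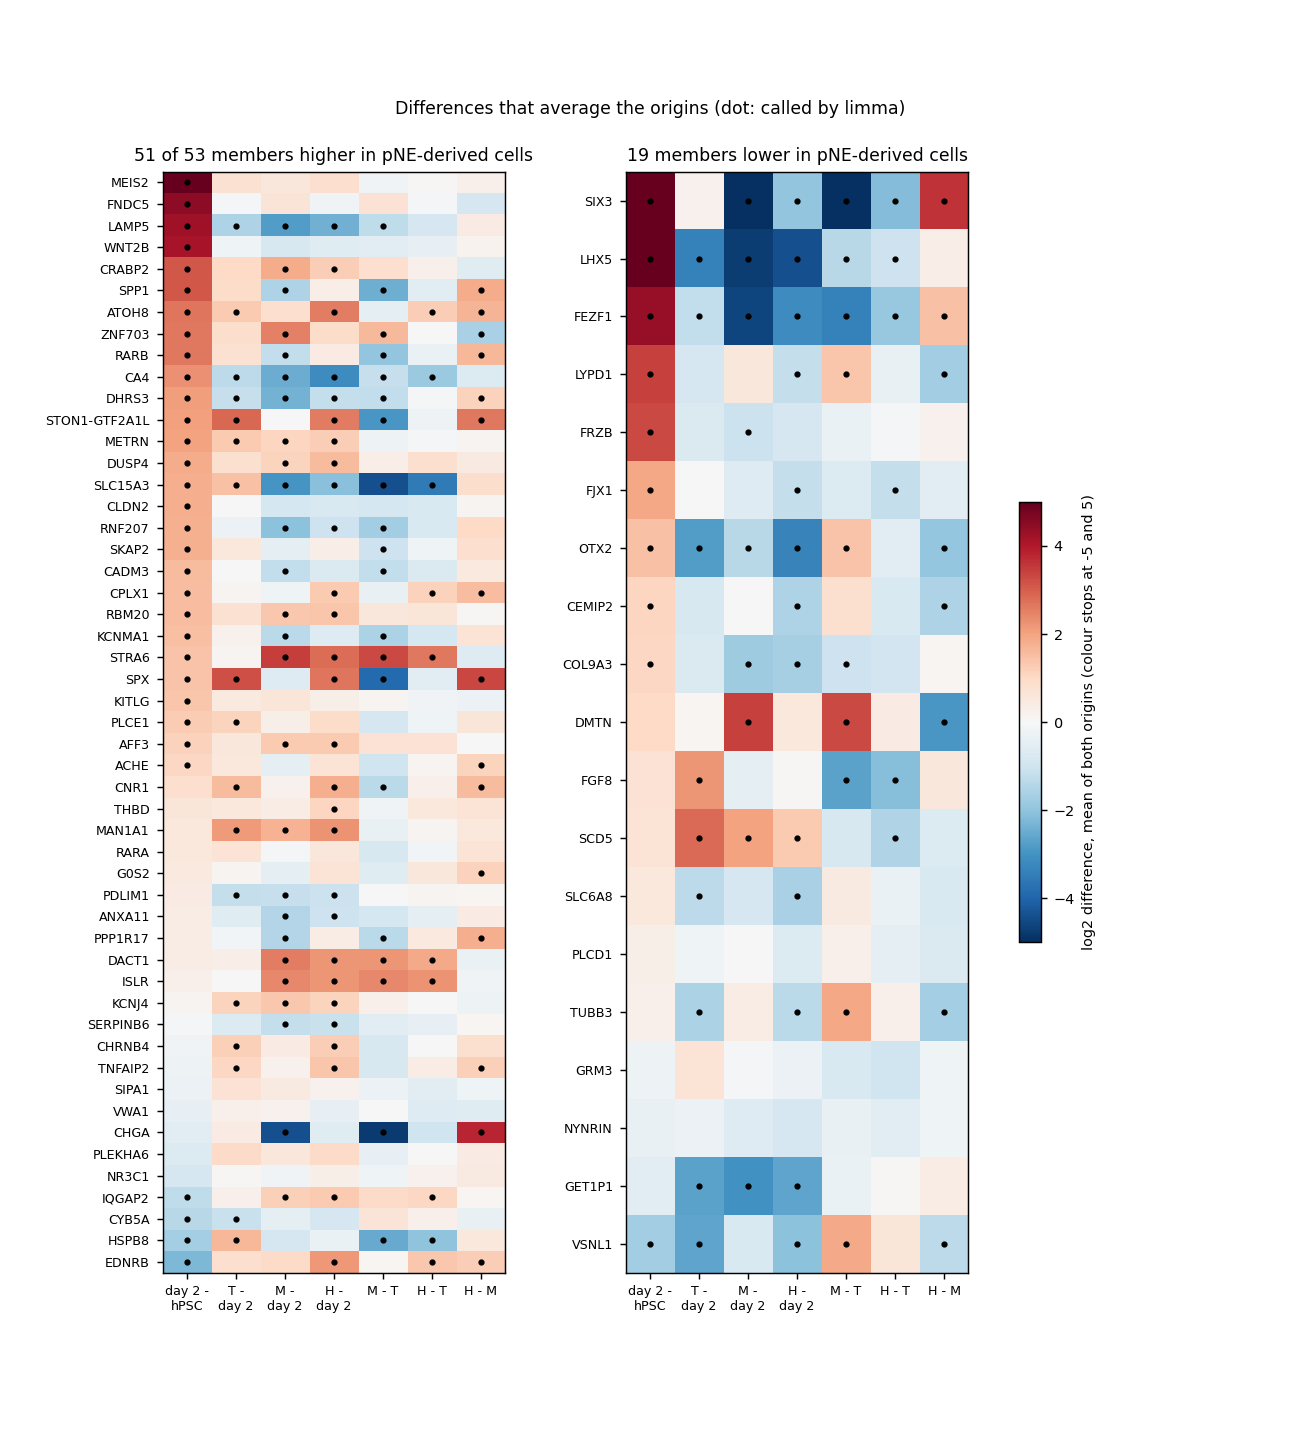
Differences between stages and between media, averaged over the 2 origins, for 51 of the 53 higher (left) and the 19 lower (right) genes, as a colour scale of log2 differences that stops at 5 either way, with a dot where limma called the gene. Columns compare day 2 with hPSC, each medium (T forebrain, M midbrain, H hindbrain) with day 2, and the media with each other, and FEZF1 carries a dot in all 7 columns.

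When each origin was followed on its own from day 2 to day 4, genes that changed by at least 1 in both origins mostly went the same way in both. Among the 53 higher genes, 9, 22 and 12 did so in the forebrain, midbrain and hindbrain media, and 3, 1 and 2 went opposite ways. Among the 19 lower genes the counts were 7, 7 and 11 the same way and 1, 0 and 0 opposite ways. Of all tested genes 4.21%, 6.66% and 5.37% went the same way and 0.558%, 0.335% and 0.499% opposite ways. These values entered the rule and are a description.

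Counted for each side, 30 of the 53 higher genes stood at least 1 above day 2 on the posterior side in the hindbrain medium and 5 at least 1 below it, against 5.08% and 8.66% of all tested genes. On the anterior side 11 stood above and 13 below by that much, against 3.65% and 8.01%. For the forebrain medium the counts were 23 above and 2 below on the posterior side (5.37% and 6.43% of all genes) and 12 above and 7 below on the anterior side (5.25% each of all genes). For the midbrain medium they were 17 above and 15 below on the posterior side (5.45% and 8.66% of all genes) and 13 above and 13 below on the anterior side (4.75% and 8.69% of all genes). Of the 19 lower genes, 10, 8 and 14 stood at least 1 below day 2 on the posterior side in the forebrain, midbrain and hindbrain media and 7, 5 and 10 on the anterior side. The levels of both sides entered the rule here too. These counts are a description, and nothing is read from how they stand to the shares of all genes.

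The differences chosen from 1 replicate were looked at in the other. With replicate 1 of each group alone, 53 genes met the rule as higher, and in replicate 2 of each group 52 of these had the same sign at all 4 stages and 41 met the threshold at all 4. Of the 22 genes lower in replicate 1, 21 kept the sign and 9 met the threshold at all 4 stages in replicate 2. Chosen from replicate 2, 66 higher and 14 lower genes gave 62 and 14 with the same sign in replicate 1, and 41 and 9 past the threshold. Signs were thus nearly always shared between replicates, while membership at the threshold was not.

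Genes near the threshold show how the limit falls. SERPINB6, IQGAP2 and KITLG lay just inside on the higher side, with smallest differences of 1.01, 1.01 and 1.02. TMEFF2, IGFBP6 and NEFM lay just outside, with 0.999, 0.98 and 0.97, although NEFM, a neurofilament gene, differed by 5.31 in the forebrain medium. On the lower side LYPD1, GRM3 and COL9A3 lay just inside, with sizes of 1.01, 1.02 and 1.03, and TLCD3B, CCDC177 and CELF5 just outside, with 0.97, 0.95 and 0.92.

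In level the 72 genes were spread widely. Of these genes, 19 had at least 5 TPM in all 9 groups, such as CRABP2, PDLIM1, TUBB3 and SLC6A8. In a further 22, no group of the origin with the lower level reached 5 TPM, 20 of them higher and 2 lower in cells of posterior origin. This count leaves hPSC aside, and NR3C1 and HSPB8, which are among the 22, also reached 5 TPM in hPSC. In 7 genes at least 1 library was listed at 0. The highest group mean was in pNE_H for 23 and in pNE_T for 17 of the 53 higher genes.

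By position the genes lay on 21 chromosomes, and 71 of them are protein coding in RefSeq. STRA6 and ISLR are neighbours on chromosome 15, 2595 bases apart, and their levels shared the pattern of low values in the forebrain medium, with ISLR at 2.81 and 1.68 TPM in pNE_T and 21.97 and 21.1 TPM in pNE_M. Exons of 11 genes overlap those of another gene with at least 1 TPM, 9 on the opposite strand and 2 on the same strand. RARB with TOP2B, RNF207 with RPL22 and ICMT, and SLC15A3 with TMEM132A are among those on the opposite strand. Whether quantification used the strand is not given in the sources used here, so reads of such pairs may not be told apart.

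Short homeodomain motifs, searched on both strands, were found in few promoter windows of these genes. TAATCC, the core of the OTX type, was in 5 of 87 windows (5.75%) of the higher genes and in none of 17 windows of the lower genes, against 6.36% of all windows. TAATTA was in 3 of the 87 (3.45%) against 4.84%. TGATNNAT, the composite of HOX and PBX type, was in 9 of the 87 (10.3%) against 7.40%, and CNR1 alone gave 4 of these 9. Windows of 1 gene overlap or share sequence and are not independent.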

How the data were processed

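RNA-seq of H1 cells was measured in 18 libraries, 2 biological replicates in each of 9 groups. The authors deposited TPM per gene for every library. The submitters' processing notes name bcl2fastq, FastQC, Trim Galore, kallisto and deepTools and the build hg38. Versions, the annotation and the use of strand are not given in the sources used here. Read depth is unknown, so precision comes from the replicates alone.

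Values were taken as log2(TPM + 1). The fit took the 17033 genes that reached 1 TPM in 2 or more libraries, and was made with limma 3.58.1 in R 4.3.3, with 1 mean per group, 9 residual degrees of freedom and Benjamini-Hochberg adjustment over all tested genes. A call needs an adjusted p under 0.05 and a log2 difference of at least 1. All limma differences in the text are on the log2(TPM + 1) scale, which understates the change of low genes. The test was checked on simulated data with independent normal errors and no shared batch. Changes were put only between hPSC and the other groups and only in genes above low levels, so the check covers no more than these. For the genes of the rule, tests cover only the 7 comparisons that average the origins. Genes are named by role, and 2 of the 72 are counted but not reported by name here. Those singled out are, in each direction, the 12 with the largest smallest difference, those whose difference grew or shrank most, those on a list, the 3 nearest the threshold and, per comparison, the 3 with the largest called change. The genes and the lists were chosen with earlier results of these data known. Alternatives were the pseudocount, the level criterion and threshold of the rule, the filter, the scaling, the replicate block and leaving out each library. Promoters are from RefSeq and exon overlaps from GENCODE.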

Additional observations from a re-analysis of the deposited data

Results flagged for a closer look

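In 8 of the 72 genes, the libraries of one origin moved one way and those of the other the opposite way, by a mean of at least 1 each on the log2(TPM + 1) scale. In each origin the libraries compared also had to lie wholly apart. The difference between the 2 changes, posterior minus anterior side, was not tested, and the same values entered the rule that chose the genes. Of all tested genes, 0.558%, 0.335% and 0.499% changed in opposite ways by at least 1 from day 2 to the forebrain, midbrain and hindbrain media. Those shares do not ask that libraries lie apart. For hPSC to day 2 no such share was computed, so nothing is read from the count. From hPSC to day 2, CHGA changed by -2.61 in aNE and by 1.54 in pNE, a difference of 4.15. DACT1 changed by -1.62 in aNE and by 2.33 in pNE, a difference of 3.95.

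From day 2 to the forebrain medium, DHRS3 changed by -3.37 on the anterior and by 1.10 on the posterior side, a difference of 4.46. WNT2B changed by -1.53 and 1.12 on these sides, a difference of 2.65, and PPP1R17 by -1.41 and 1.17, a difference of 2.58. FJX1 went the other way, with 1.13 on the anterior and -1.12 on the posterior side, a difference of -2.25. In the hindbrain medium PPP1R17 changed by -1.38 and 2.10, a difference of 3.48, and FNDC5 by -1.61 and 1.23, a difference of 2.84. In the midbrain medium STON1-GTF2A1L changed by -1.45 and 1.38, a difference of 2.84.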

How the results depend on the processing

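The number of genes that met the rule depended on its settings. A pseudocount of 0.1 gave 92 higher and 38 lower genes, a threshold of 0.8 gave 84 and 40, and a threshold of 1.5 gave 25 and 6, against 53 and 19 here. Without any 1 library the counts ranged from 50 to 58 higher and from 15 to 22 lower genes, with the extremes where 1 of the pNE libraries was left out. Median-ratio scaling gave 56 and 15 genes and quantile normalization 53 and 17.

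Of the 219 called differences that average the origins, 200 passed in all 24 alternatives and none reversed. The other 19 lost the call in some, with log2 values of 0.840 to 0.999 in size there, among them LHX5 (hindbrain against forebrain medium) and SKAP2 (midbrain against forebrain medium). Leaving out 1 library gave 41 to 45 called genes from hPSC to day 2, 27 to 30, 36 to 37 and 40 to 43 in the forebrain, midbrain and hindbrain media, 29 to 31 between midbrain and forebrain, 15 to 18 between hindbrain and forebrain and 22 to 24 between hindbrain and midbrain media.

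With the replicate number as a block the counts were 43, 28, 37, 42, 30, 16 and 23, and no call was lost. Deviations of same-numbered libraries correlated at -0.09 to 0.08 over 36 pairs of groups, so the samples were not treated as pairs. These correlations cannot tell whether same-numbered libraries came from the same culture run. Each group has 2 replicates and no read depth is known. The gap between the libraries of the 2 origins was smallest in GET1P1, STON1-GTF2A1L and SPX, at 0.54, 0.57 and 0.63 on the log2 scale.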
